A study of Homo sapiens with 12 samples.

Results

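ATP synthase, complex V of the mitochondrial respiratory system, makes ATP from ADP and phosphate as protons flow back across the inner membrane. The 10 genes described here encode the catalytic F1 head (ATP5F1A and ATP5F1B, the alpha and beta subunits), the central stalk that turns inside it (ATP5F1C, ATP5F1D and ATP5F1E, gamma, delta and epsilon), the peripheral stalk that holds the head still (ATP5PB, ATP5PD, ATP5PF and ATP5PO, subunits b, d, F6 and OSCP) and, as ATP5MC1, a subunit of the membrane ring of c subunits that protons drive round. ATP5MC1 thus belongs to neither the F1 head nor a stalk, and it was kept because the list names it. The genes were found by symbol among the 58735 genes of both deposited tables, and all 10 passed the filter on low values in both.

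The data were RNA-seq of 12 libraries, 3 in each of 4 groups. SK-BR-3 is an established ERBB2-amplified human breast cancer line, and SK/EPI is an epirubicin-resistant line derived from it by stepwise exposure to rising epirubicin. SK/EPI-siBCRP and SK/EPI-siNC are SK/EPI cells treated for 48 h with siRNA against BCRP, the efflux transporter encoded by ABCG2, or with a control siRNA. SK/EPI and both siRNA groups thus all carry the selection history of a single resistant line, and nothing in the labels says that the 3 libraries of a group came from separate cultures, so the p-values measure the spread between these libraries only. The first table holds SK/EPI with SK-BR-3 and the second SK/EPI-siBCRP with SK/EPI-siNC, and no test was made between the tables.

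The deposited values are FPKM, the fragments on a gene per kilobase of its exons, scaled to the size of the library. They corresponded to 15830381 to 20545811 reads on genes in a library, and a member had between 422 and 37612 reads. The targeted gene, ABCG2, stood at 0.0750, 0.0220 and 0.0520 FPKM in SK-BR-3 (2 to 6 reads) and at 33.9, 35.9 and 32.7 FPKM in SK/EPI. It stood at 32.5, 32.7 and 33.7 FPKM in SK/EPI-siNC and at 2.84, 3.47 and 2.91 FPKM in SK/EPI-siBCRP, a log2 fold change of -3.06 (SE 0.06, adjusted p = 5.93e-07). ERBB2, a marker of the line, was at 652 to 662 FPKM in SK-BR-3 and at 128 to 136 FPKM in SK/EPI. It was at 103 to 107 FPKM in SK/EPI-siNC and at 96.1 to 98.1 FPKM in SK/EPI-siBCRP. Of the other line markers, KRT19 and GRB7 were lower in SK/EPI than in SK-BR-3 (log2 fold change -1.69 and -1.27). KRT8 and KRT18 were higher (0.24 and 0.75), and EPCAM did not pass the limma test (0.08, adjusted p = 0.11). Of 13 markers of leukocytes, endothelium and fibroblasts, 10 or 11 were under 1 FPKM in every library of a group, PTPRC, LYZ, COL1A2, LUM and DCN among them. Their summed level was 9.88 to 10.3 FPKM in SK-BR-3 and 55.5 to 58.4 in SK/EPI, mostly CDH5 and CD14, and 23.2 to 24.1 in SK/EPI-siNC and 32.8 to 33.5 in SK/EPI-siBCRP. The part of these markers in the results was not tested.

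Reads of these genes can be shared with other genes, and the sequences show where. The alpha and beta subunits carry the nucleotide-binding P-loop (Walker A motif), whose coding stretch occurred once in each gene's coding sequence in GENCODE 29 and differs between them. It spans codons 212 to 219 of ATP5F1A, a gene at chr18:46080248-46104334 on the minus strand of GRCh38, and codons 206 to 213 of ATP5F1B, at chr12:56638175-56646068 on the minus strand. Capitals mark the bases of the first glycine codon and of the closing glycine, lysine and threonine codons.
ATP5F1A: GGTgaccgacagactGGGAAAACC
ATP5F1B: GGTggtgctggagttGGCAAGACT

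The c subunit is encoded by 3 nuclear genes, and ATP5MC1 (chr17:48892765-48895871, plus strand) is compared below with the other two, ATP5MC2 (chr12:53632726-53677408, minus strand) and ATP5MC3 (chr2:175176258-175184607, minus strand). Their coding sequences of 136, 141 and 142 codons end in the same translation over 77 codons. Of the 231 bases of this shared end, 57 differ among the 3 genes, 27 of them between ATP5MC1 and ATP5MC2 and 46 between either of these and ATP5MC3. The last 120 coding bases before the stop codon, a part of this shared end, are shown with the positions at which reads of the 3 genes can differ there. Capitals mark the 30 positions that differ among the genes.
ATP5MC1: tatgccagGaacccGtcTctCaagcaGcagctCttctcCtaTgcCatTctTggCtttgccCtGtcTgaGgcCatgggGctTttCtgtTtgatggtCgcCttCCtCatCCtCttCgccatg
ATP5MC2: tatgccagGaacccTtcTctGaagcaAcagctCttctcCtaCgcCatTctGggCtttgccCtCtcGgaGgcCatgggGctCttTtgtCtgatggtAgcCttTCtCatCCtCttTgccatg
ATP5MC3: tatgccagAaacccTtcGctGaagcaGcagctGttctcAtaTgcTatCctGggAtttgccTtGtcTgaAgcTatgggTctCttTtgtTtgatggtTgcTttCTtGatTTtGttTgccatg

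No stretch of 100 bases of the ATP5MC1 transcript occurred in another gene, so reads of at least that length had no second exact match in the annotation. The same held for ATP5F1A, ATP5F1B, ATP5F1D and ATP5PD, and 0.204% of such stretches of ATP5F1C lay in its pseudogene ATP5F1CP1. The share was 67.1% for ATP5PO, whose transcript shares 655 of its bases with AP000311.1 on the same strand, a gene listed at 0 reads in all 12 libraries. It was 30.5% for ATP5F1E, opposite TUBB1, 10.2% for ATP5PB, mainly opposite WDR77, and 8.98% for ATP5PF, opposite GABPA. ATP5PO also shares 106 bases of its transcript with the antisense gene LINC00649, and ATP5PD shares 40 with KCTD2 on the opposite strand. Over all annotated exons of a gene, on which the deposited values rest, more bases are shared. ATP5PO shares 300 with LINC00649, ATP5PD 340 with KCTD2, ATP5PF 413 with GABPA and ATP5PB 350 with WDR77. ATP5PD also shares 276 there with RN7SL573P on the opposite strand, listed at 0 reads in all 12 libraries. How the counting treated strand, and reads that fall on more than a single gene, is not given in the sources used here. Reads from ATP5F1E, ATP5PB, ATP5PF, ATP5PO and ATP5PD therefore cannot be told apart from those of the overlapping genes where they overlap, and for ATP5PO and AP000311.1 on the same strand this holds whatever the strand setting. TUBB1 had 8 to 32 reads in a library against 2967 to 4055 for ATP5F1E, WDR77 had 316 to 853 against 2045 to 5321 for ATP5PB, and GABPA had 461 to 631 against 666 to 1420 for ATP5PF. LINC00649 had 126 to 321 reads against 422 to 672 for ATP5PO, and KCTD2 had 884 to 1346 against 1440 to 2897 for ATP5PD. Of 30 annotated pseudogenes of the members, 9 had a read and 1 had more than 10 in a library, at most 29.

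In resistant SK/EPI cells, 8 of the 10 genes fell below their level in the parental line (adjusted p under 0.05, limma) and 2 did not pass the test. None was higher, also not by voom or at an unadjusted p under 0.05. Of all 15823 genes tested, 37.0% were called lower in SK/EPI. The median log2 fold change of the 10 was -0.46, beside 0.01 over all genes tested, and it lay between -0.47 and -0.38 under the other scalings, filters and models tried. The falls were uneven: gamma, alpha, b and F6 were below 0.5 of their parental level, while d and epsilon did not pass the test. In 8 genes the libraries of both groups did not overlap, with SK/EPI lower, against 38.3% of all genes tested.

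**Figure D1:**
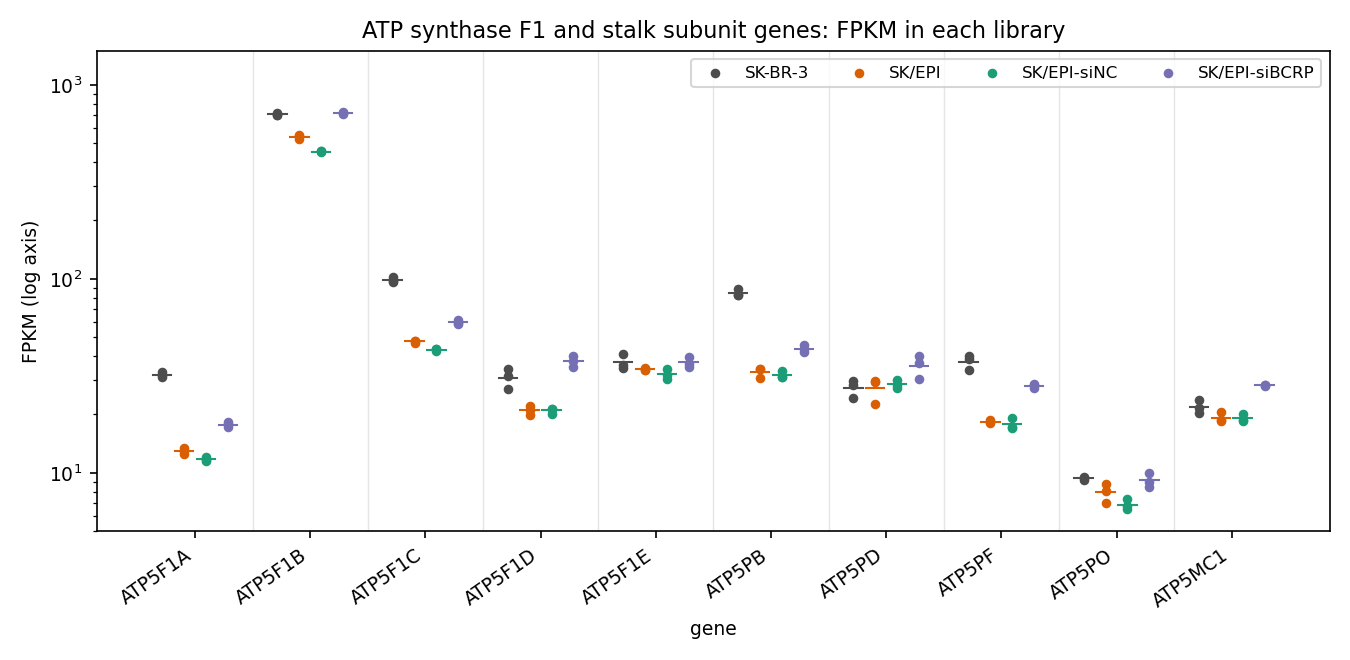
FPKM of each of the 10 genes (x axis) on a log axis, with a point for each library and a line at the mean of the 3 libraries, in SK-BR-3, SK/EPI, SK/EPI-siNC and SK/EPI-siBCRP from left to right. SK/EPI points lie below SK-BR-3 points for 8 genes (not for ATP5PD and ATP5MC1, which overlap), and SK/EPI-siBCRP points lie above SK/EPI-siNC points for all 10; the first 2 groups and the last 2 come from separate tables.

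In the F1 head, ATP5F1A, whose product forms the ring of the head with beta, had 31.1, 32.9 and 32.0 FPKM in SK-BR-3 and 12.4, 13.5 and 12.9 FPKM in SK/EPI. Every resistant library was below every parental library, and the log2 fold change was -1.24 (SE 0.04, adjusted p = 4.96e-08). ATP5F1B, which carries the catalytic sites, had 697, 718 and 703 FPKM in SK-BR-3 and 525, 547 and 551 FPKM in SK/EPI. It fell by less, 0.38 on the log2 scale (SE 0.05, adjusted p = 1.36e-04), again with no overlap. The ratio of ATP5F1A to ATP5F1B, which no scaling of the libraries can change, was 0.0446, 0.0458 and 0.0455 in SK-BR-3 and 0.0237, 0.0247 and 0.0234 in SK/EPI. It was thus 0.528 times the parental ratio, with no overlap. An exact permutation test (two-sided) gave p = 0.1, the smallest that 3 libraries against 3 allow, and 0.12 after adjustment over the 12 ratio comparisons made.

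In the central stalk, ATP5F1C, the gamma shaft, had 102, 95.9 and 97.7 FPKM in SK-BR-3 and 48.1, 46.8 and 47.7 in SK/EPI. The log2 fold change was -1.04 (SE 0.03, adjusted p = 5.17e-08), and the groups were far apart. ATP5F1D, whose product sits at the foot of the shaft, had 34.3, 27.1 and 31.6 FPKM in SK-BR-3 and 19.9, 22.2 and 21.2 in SK/EPI, lower by 0.53 (log2 fold change -0.53, SE 0.08, adjusted p = 4.96e-04). ATP5F1E, the small epsilon subunit next to it, had 40.9, 36.0 and 34.8 FPKM in SK-BR-3 and 34.0, 34.0 and 34.6 in SK/EPI. The libraries of ATP5F1E did not overlap, but the lowest parental library was only just above the highest resistant library. Its log2 fold change of -0.12 (95% interval -0.25 to 0.01) did not pass the test (adjusted p = 0.094). Without SK-BR-3 replicate 3 it did (-0.16, adjusted p = 0.031). The ratio of ATP5F1C to ATP5F1E was 2.49 to 2.80 in SK-BR-3 and 1.38 to 1.42 in SK/EPI (exact permutation p = 0.1, adjusted 0.12).

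In the peripheral stalk, ATP5PB, the long b subunit anchored in the membrane, showed the largest fall of the 10. It had 88.4, 82.8 and 82.6 FPKM in SK-BR-3 and 30.8, 34.2 and 34.4 in SK/EPI, a log2 fold change of -1.33 (SE 0.05, adjusted p = 1.24e-07). WDR77, which overlaps it on the opposite strand over 322 bases of its transcript, fell as well, from 673 to 853 reads in a library to 361 to 365 (log2 fold change of FPKM -1.10, adjusted p = 3.45e-07). ATP5PF, coupling factor F6, had 40.1, 38.5 and 33.8 FPKM in SK-BR-3 and 18.2, 18.1 and 18.7 in SK/EPI (log2 fold change -0.99, SE 0.06, adjusted p = 1.94e-06). Its opposite-strand neighbour GABPA, a subunit of an ETS-family factor known for its sites at respiratory genes, had 5.34 to 5.83 FPKM in SK-BR-3 and 4.67 to 5.24 in SK/EPI (adjusted p = 0.11).

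The other two peripheral stalk genes showed small differences. ATP5PO, the OSCP subunit at the top of the stalk, had 9.50, 9.46 and 9.18 FPKM in SK-BR-3 and 8.09, 7.0 and 8.72 in SK/EPI. Its log2 fold change of -0.22 (SE 0.07) passed the test (adjusted p = 0.021), but not without SK-BR-3 replicate 1 (-0.21, adjusted p = 0.052) or SK-BR-3 replicate 2 (-0.21, adjusted p = 0.051). The antisense LINC00649 fell as well, from 246 to 321 reads in a library of SK-BR-3 to 155 to 179 of SK/EPI (log2 fold change of FPKM -0.40, adjusted p = 1.93e-04). ATP5PD, subunit d, had 28.3, 29.8 and 24.2 FPKM in SK-BR-3 and 22.7, 29.3 and 29.8 in SK/EPI, and the groups overlapped. Its log2 fold change of -0.01 (95% interval -0.27 to 0.24, adjusted p = 0.91) did not pass the test under any alternative, and its sign turned under scaling outside the mitochondrial chromosome (0.05) and under voom on recovered reads (0.07), and without SK-BR-3 replicate 1 (0.0092), SK-BR-3 replicate 2 (0.05) or SK/EPI replicate 1 (0.11). The ratio of ATP5PB to ATP5PD was 2.78 to 3.41 in SK-BR-3 and 1.156 to 1.36 in SK/EPI (exact permutation p = 0.1, adjusted 0.12).

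ATP5MC1 of the c ring had 21.6, 23.7 and 20.4 FPKM in SK-BR-3 and 18.4, 18.7 and 20.6 in SK/EPI, so that the highest resistant library overlapped the lowest parental library. The log2 fold change of -0.18 (SE 0.06, adjusted p = 0.033) passed the test, but it did so in only 6 of the 14 alternatives. Leaving out SK-BR-3 replicate 1 gave an adjusted p of 0.057, SK-BR-3 replicate 2 gave 0.097, SK/EPI replicate 1 gave 0.10 and SK/EPI replicate 2 gave 0.092. The genes that fell past the test in all 14 alternatives were ATP5F1A, ATP5F1B, ATP5F1C, ATP5F1D, ATP5PB and ATP5PF.

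After BCRP silencing, all 10 genes were higher in SK/EPI-siBCRP than in SK/EPI-siNC at an adjusted p under 0.05. Of the 16298 genes tested in that table, 19.4% were called higher. The median log2 fold change of the 10 was 0.51, between 0.47 and 0.52 under the other scalings, filters and models, beside -0.0036 over all genes tested. The libraries of both groups did not overlap in any of the 10, against 25.5% of all genes tested with the silenced group higher. The rises ran from 0.20 to 0.81 on the log2 scale, a narrower spread than the falls in SK/EPI, which ran from -1.33 to -0.01.

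**Figure D2:**
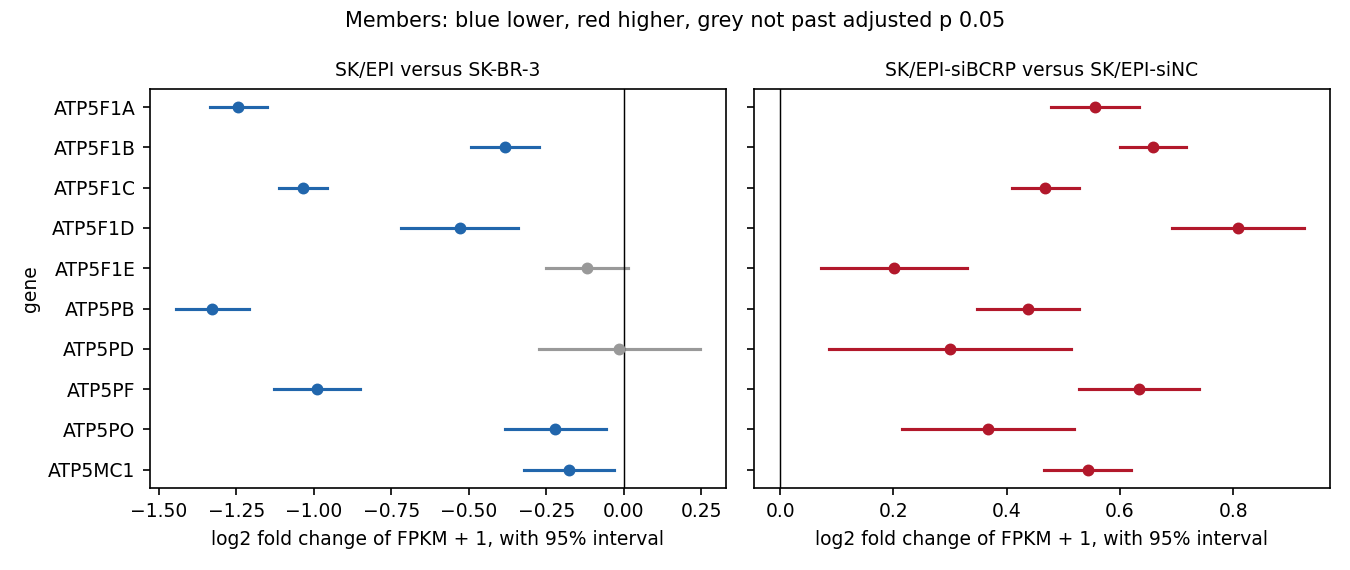
Log2 fold change of FPKM + 1 (x axis, different range in each panel) of the 10 genes with 95% intervals, for SK/EPI versus SK-BR-3 (left) and SK/EPI-siBCRP versus SK/EPI-siNC (right). Blue marks genes called lower, red genes called higher and grey genes not called; 8 are blue and 2 grey on the left, and all 10 are red on the right.

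In the F1 head, ATP5F1A had 11.5, 12.1 and 11.6 FPKM in SK/EPI-siNC and 17.2, 18.2 and 17.8 in SK/EPI-siBCRP, a log2 fold change of 0.56 (SE 0.03, adjusted p = 2.62e-05). ATP5F1B had 450, 454 and 456 FPKM in SK/EPI-siNC and 706, 720 and 721 in SK/EPI-siBCRP (log2 fold change 0.66, SE 0.02, adjusted p = 4.73e-06). Both head subunits thus rose. Their ratio was 0.0256, 0.0266 and 0.0255 in SK/EPI-siNC and 0.0243, 0.0253 and 0.0247 in SK/EPI-siBCRP, 0.956 times the control ratio (exact permutation p = 0.1, adjusted 0.12). The libraries of this ratio did not overlap, but they lay much closer together than those of SK/EPI and SK-BR-3.

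The central stalk held both the largest and the smallest rise. ATP5F1D went from 20.2, 21.4 and 21.4 FPKM in SK/EPI-siNC to 40.03, 34.96 and 37.7 in SK/EPI-siBCRP (log2 fold change 0.81, SE 0.05, adjusted p = 3.04e-05). ATP5F1C went from 43.5, 43.3 and 42.3 FPKM to 58.8, 59.3 and 61.6 (log2 fold change 0.47, SE 0.03, adjusted p = 1.69e-05). ATP5F1E had 34.2, 30.4 and 31.9 FPKM in SK/EPI-siNC and 36.6, 35.2 and 39.7 in SK/EPI-siBCRP, and the silenced libraries were higher by a small margin. Its log2 fold change of 0.20 (SE 0.05, adjusted p = 0.025) kept its call in 2 of the 6 fits that left out a library. It lost it without SK/EPI-siBCRP replicate 1 (adjusted p = 0.051) or replicate 3 (0.062), and without SK/EPI-siNC replicate 2 (0.072) or replicate 3 (0.066).

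All 4 genes of the peripheral stalk were higher after silencing. ATP5PF had 19.1, 17.1 and 17.2 FPKM in SK/EPI-siNC and 28.3, 27.3 and 28.9 in SK/EPI-siBCRP (log2 fold change 0.63, SE 0.05, adjusted p = 5.68e-05). ATP5PB had 31.4, 33.6 and 31.2 FPKM in SK/EPI-siNC and 42.1, 43.7 and 45.4 in SK/EPI-siBCRP (log2 fold change 0.44, SE 0.04, adjusted p = 1.41e-04). The overlapping WDR77 did not pass the test there, with 316 to 401 reads in a library of SK/EPI-siNC and 337 to 408 of SK/EPI-siBCRP (log2 fold change 0.06, adjusted p = 0.26). GABPA, opposite ATP5PF, had 4.46 to 4.58 FPKM in SK/EPI-siNC and 4.83 to 5.49 in SK/EPI-siBCRP (log2 fold change 0.16, adjusted p = 0.043, and 0.076 with the replicate number as a block).

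ATP5PO had 6.49, 7.29 and 6.78 FPKM in SK/EPI-siNC and 8.45, 8.95 and 9.999 in SK/EPI-siBCRP (log2 fold change 0.37, SE 0.06, adjusted p = 0.0039). ATP5PD had 27.4, 30.1 and 28.4 FPKM in SK/EPI-siNC and 30.4, 39.8 and 36.7 in SK/EPI-siBCRP, where the silenced libraries spread more widely than the control libraries. Its log2 fold change of 0.30 (SE 0.09, adjusted p = 0.036) kept its call only without SK/EPI-siBCRP replicate 1, its lowest silenced library, among the 6 fits that left out a library. The adjusted p was 0.089 without SK/EPI-siBCRP replicate 2 and 0.096 without replicate 3, and 0.096, 0.051 and 0.085 without SK/EPI-siNC replicates 1, 2 and 3.

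ATP5MC1 had 20.05, 18.5 and 18.8 FPKM in SK/EPI-siNC and 28.0, 28.5 and 28.5 in SK/EPI-siBCRP (log2 fold change 0.54, SE 0.03, adjusted p = 2.73e-05). This gene, which had changed by only -0.18 between SK/EPI and SK-BR-3, thus rose past the test in the silenced cells. The genes other than ATP5F1E and ATP5PD kept their calls in all 14 alternatives.

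Both comparisons together gave 8 of the 10 genes called lower in SK/EPI and higher in SK/EPI-siBCRP, a combination held by 8.51% of the 15152 genes tested in both tables. The comparisons share no library. The size of the fall and that of the rise went together only loosely. Over the 10 genes, Spearman's rho between the log2 fold changes of both comparisons was -0.43, given without a test. A negative value pairs larger falls with larger rises. ATP5F1E and ATP5PD changed least in both comparisons. Other genes did not match: ATP5PB fell by 1.33 and then differed by 0.44, while ATP5F1D fell by 0.53 and then differed by 0.81. Side by side, and without a test because the tables may have been normalized separately, ATP5F1B averaged 706 ± 11.1 FPKM (SD, n = 3) in SK-BR-3, 541 ± 14.1 in SK/EPI, 453 ± 3.17 in SK/EPI-siNC and 716 ± 8.50 in SK/EPI-siBCRP. ATP5F1A averaged 32.0 ± 0.913, 12.95 ± 0.532, 11.7 ± 0.305 and 17.7 ± 0.537 FPKM (SD, n = 3) in the same order.

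Among the members, ATP5F1B had the highest and ATP5PO the lowest deposited FPKM in every group. AP000311.1 was listed at 0 reads in every group. Whether reads on the bases it shares with ATP5PO were counted for ATP5PO or left out is not known. The rank of ATP5PO carries this limit on either length scale below. In SK-BR-3 the order was ATP5F1B, ATP5F1C (98.6 FPKM), ATP5PB (84.6), ATP5PF (37.4), ATP5F1E (37.3), ATP5F1A (32.0), ATP5F1D (31.0), ATP5PD (27.4), ATP5MC1 (21.9) and ATP5PO (9.38). ATP5PF and ATP5F1E overlapped in their libraries, as did ATP5F1A with ATP5F1D and ATP5F1D with ATP5PD. In SK/EPI, ATP5PB had dropped below ATP5F1E, with overlapping libraries, and ATP5F1A had gone from rank 6 to rank 9 (12.95 FPKM). In both siRNA groups ATP5F1A was again at rank 9. The order depends on the length used. The deposited values divide by merged exons, which are 1.07 times (ATP5PB) to 5.36 times (ATP5PD) as long as the transcript chosen for the gene, and per length of that transcript ATP5PD was at rank 3 in SK-BR-3 and at rank 2 in the other groups. ATP5F1B was at rank 1 on both scales, whereas on the second scale ATP5F1A and not ATP5PO was last in SK/EPI and SK/EPI-siNC, with libraries that overlapped those of ATP5PO in SK/EPI.

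The c subunit genes, which encode the same mature protein, differed in their changes. ATP5MC2 had 15.8, 16.7 and 17.0 FPKM in SK-BR-3 and 19.5, 21.4 and 22.2 in SK/EPI, and it rose (log2 fold change 0.33, SE 0.05, adjusted p = 6.67e-04) where ATP5MC3 fell, from 36.7, 34.4 and 34.3 FPKM to 22.6, 25.2 and 23.7 (log2 fold change -0.54, SE 0.05, adjusted p = 1.61e-05). After silencing, ATP5MC3 rose from 24.4, 22.6 and 22.1 FPKM to 35.2, 35.3 and 34.3 (log2 fold change 0.58, SE 0.04, adjusted p = 3.60e-05). ATP5MC2, with 20.1, 18.9 and 18.3 FPKM in SK/EPI-siNC and 18.3, 17.96 and 18.6 in SK/EPI-siBCRP, did not pass the test (log2 fold change -0.06, 95% interval -0.15 to 0.03, adjusted p = 0.24). ATP5MC1 thus rose with ATP5MC3 after silencing, while in SK/EPI it lay between the other two.

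The ratio of ATP5MC1 to ATP5MC2 was 1.33 ± 0.117 in SK-BR-3, 0.918 ± 0.0362 in SK/EPI, 1.00 ± 0.0276 in SK/EPI-siNC and 1.55 ± 0.0296 in SK/EPI-siBCRP (SD, n = 3). Neither pair of groups overlapped (exact permutation p = 0.1 in each comparison, adjusted 0.12). The ratio of ATP5MC1 to ATP5MC3 was higher in SK/EPI, at 0.810 ± 0.0636, than in SK-BR-3, at 0.624 ± 0.0551, with no overlap (SD, n = 3; exact permutation p = 0.1, adjusted 0.12). It overlapped between both siRNA groups, at 0.832 ± 0.0184 and 0.811 ± 0.0171 (SD, n = 3; exact permutation p = 0.3, adjusted 0.33). As a share of the summed FPKM of the 3 genes, ATP5MC1 made up 29.8% ± 1.68 in SK-BR-3, 30.1% ± 1.21 in SK/EPI, 31.2% ± 0.522 in SK/EPI-siNC and 34.7% ± 0.303 in SK/EPI-siBCRP (SD, n = 3). The sum itself was 73.6 ± 1.60 FPKM in SK-BR-3, 64.1 ± 3.18 in SK/EPI, 61.2 ± 2.85 in SK/EPI-siNC and 81.5 ± 0.228 in SK/EPI-siBCRP.

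**Figure D3:**
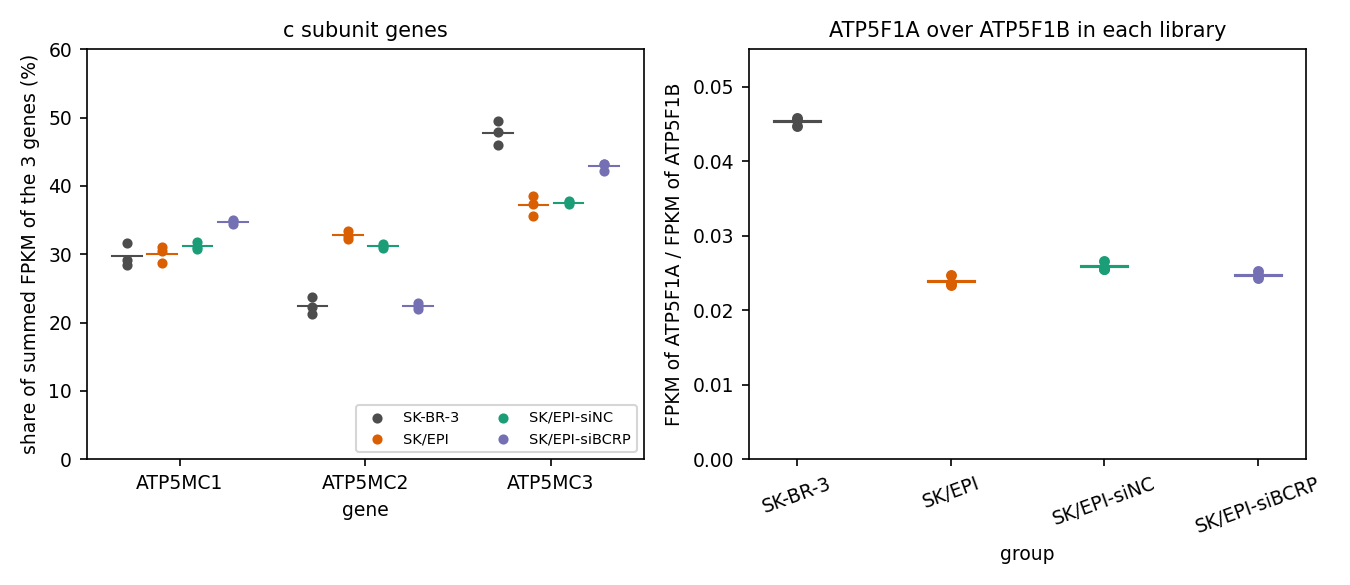
Left, share of the summed FPKM of ATP5MC1, ATP5MC2 and ATP5MC3 (y axis, percent) held by each gene; right, FPKM of ATP5F1A divided by FPKM of ATP5F1B. Points are libraries and lines group means; the ATP5MC2 share is higher in SK/EPI and SK/EPI-siNC than in SK-BR-3 and SK/EPI-siBCRP, and the ratio on the right is 0.0446 to 0.0458 in SK-BR-3 and 0.0234 to 0.0266 in the other groups.

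Of 22 other genes of the complex, its assembly and its substrate carriers, 21 passed the filter (ATP5MGL did not). In SK/EPI 6 of the 21 were higher and 8 lower than in SK-BR-3, against 37.9% and 37.0% of all genes tested, and their median log2 fold change was -0.08. After silencing 14 were higher and none lower by limma (7 did not pass, of which TMEM242 had an unadjusted p of 0.023 and was called lower in 5 of the 14 alternatives, voom on recovered reads included), with a median of 0.29, against 19.4% and 18.7% of all genes. The remaining membrane subunits of the complex counted 1 higher and 3 lower of 9 tested in SK/EPI, and 7 higher of 9 after silencing. Those lower in SK/EPI were ATP5MC3, ATP5MF (log2 fold change -0.48, adjusted p = 0.0030), a small subunit of the membrane part, and MT-ATP8 (-0.70, adjusted p = 5.93e-04), encoded in mitochondrial DNA. MT-ATP8 had few reads, 535 to 603 in a library of SK-BR-3 and 337 to 416 of SK/EPI. MT-ATP6 had 40649 to 53282 and 47136 to 49727. Bases that these mitochondrial genes share with other genes were not examined, and their part in the fall of MT-ATP8 was not tested.

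MT-ATP6, the subunit a that forms the proton path with the c ring and is also encoded in mitochondrial DNA, had 3761, 4332 and 3911 FPKM in SK-BR-3 and 3531, 3939 and 3898 in SK/EPI, which overlapped (adjusted p = 0.55). It had 1596, 1597 and 1599 FPKM in SK/EPI-siNC and 1786, 1839 and 1879 in SK/EPI-siBCRP (log2 fold change 0.20, adjusted p = 0.0046). The share of all reads on the mitochondrial chromosome was 4.18% to 4.23% in SK-BR-3, 5.10% to 5.38% in SK/EPI, 3.58% to 3.68% in SK/EPI-siNC and 3.73% to 3.84% in SK/EPI-siBCRP, and its part in the members' values was not tested beyond the scaling that leaves this chromosome out.

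Of 8 assembly and regulatory genes, 3 were higher and 3 lower in SK/EPI, against 37.9% and 37.0% of all genes tested. After silencing 3 were higher, against 19.4% of all genes tested. Of the 3 higher in SK/EPI, FMC1 was near the floor, with 5 to 9 reads in a library of SK-BR-3 and 9 to 14 of SK/EPI. Its groups overlapped, and its log2 fold change of 0.20 (adjusted p = 0.038, limma) kept its call in 7 of the 10 alternatives that tested it. FMC1 is also among the 6 higher of the 21 genes. TMEM70, known for helping the c subunits into the complex, fell most, from 59.8, 58.3 and 56.3 FPKM in SK-BR-3 to 16.4, 17.5 and 17.6 in SK/EPI (log2 fold change -1.70, SE 0.04, adjusted p = 8.69e-09). It was higher after silencing by 0.31 (adjusted p = 0.0042). OXA1L, the inner membrane insertase, rose in both comparisons (log2 fold changes 0.53, adjusted p = 1.11e-06, and 0.43, adjusted p = 1.52e-05). ATP5IF1, the inhibitor of ATP hydrolysis by F1, fell in SK/EPI (-0.94, adjusted p = 2.26e-06) and stood at 25.2 to 27.8 FPKM in SK/EPI-siNC and 25.03 to 28.8 in SK/EPI-siBCRP (adjusted p = 0.96).

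**Figure D4:**
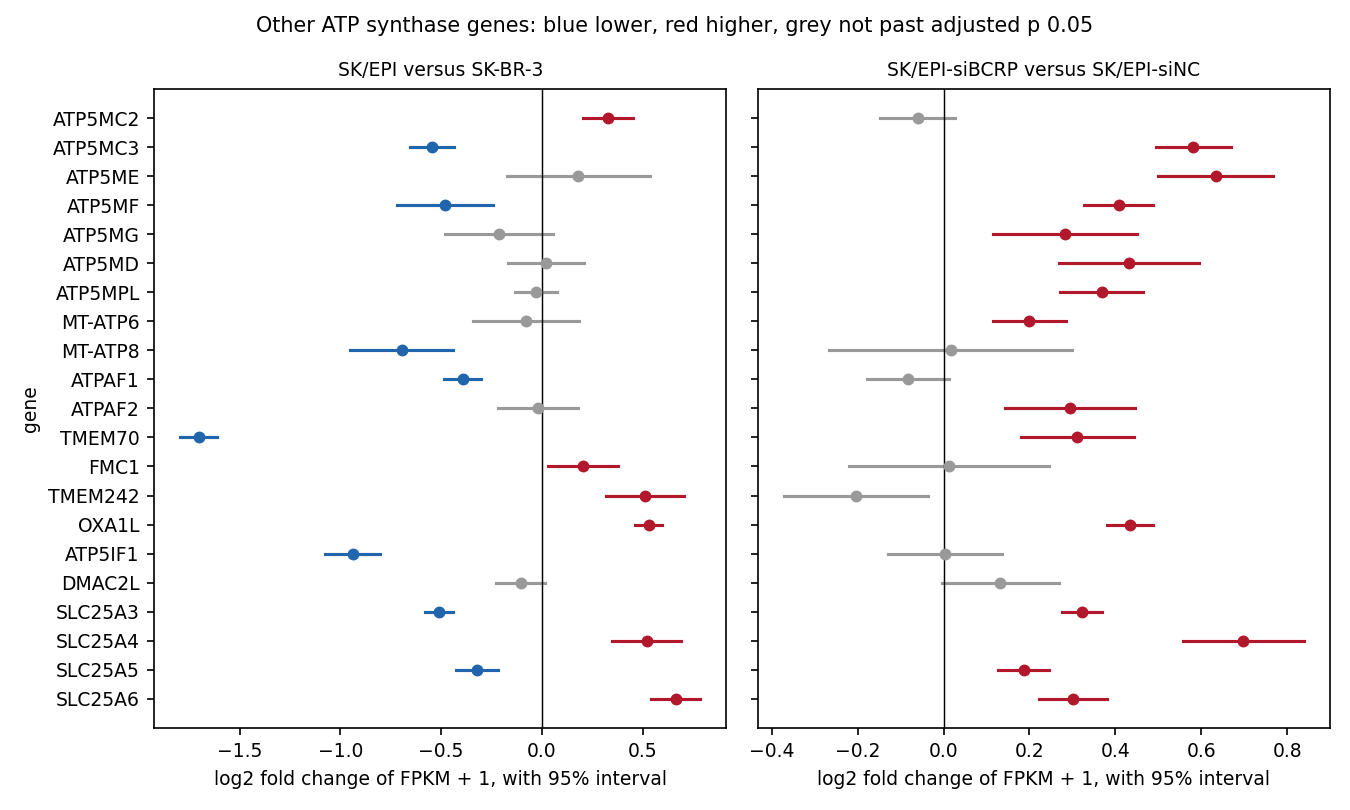
Log2 fold change of FPKM + 1 (x axis, different range in each panel) with 95% intervals for the 21 tested genes of the membrane part, assembly and carriers, in the same colours as for the members. On the left 6 genes are red and 8 blue, and on the right 14 are red and none blue.

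Over the 12 libraries, with log2 values centred within each table, the members followed their own mean with Pearson's r from 0.49 (ATP5PD) to 0.98 (ATP5PF); each member is part of that mean. Outside the lists, genes among the 5 most like the mean, of 15152 compared, were ID2 (r = 0.995), a helix-loop-helix inhibitor of transcription, UQCRC1 (0.992), a core subunit of complex III, TOMM40 (0.992), the import pore of the outer membrane, and CYTH3 (0.991), an exchange factor for small GTPases. These correlations are descriptions over libraries that share the same group contrasts. UQCRC1 had 94.1 to 98.6 FPKM in SK-BR-3, 66.0 to 68.1 in SK/EPI, 46.1 to 47.2 in SK/EPI-siNC and 63.7 to 67.5 in SK/EPI-siBCRP.

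RefSeq promoter windows (GRCh38.p14, 250 bases before to 50 after a start) were matched for 8 of the members, ATP5F1B and ATP5F1D not among them, and a single window was used for each. The 250 bases before the start are shown for ATP5F1A and ATP5F1C, the alpha and gamma genes that both fell strongly in SK/EPI and rose after silencing. Capitals mark a match to an ETS motif (CCGGAAG on either strand) in ATP5F1A and to NRF1 (GCGCATG, here found on both strands with an overlap) in ATP5F1C. The window of ATP5F1A, chr18:46098297-46098546 on the minus strand, lies inside the span that GENCODE 29 gives the gene and holds 57 bases of its annotated exons. That of ATP5F1C, chr10:7787927-7788176 on the plus strand, holds 48 bases of its own exons and 55 of KIN, which starts 148 bases away in the opposite direction.
ATP5F1A: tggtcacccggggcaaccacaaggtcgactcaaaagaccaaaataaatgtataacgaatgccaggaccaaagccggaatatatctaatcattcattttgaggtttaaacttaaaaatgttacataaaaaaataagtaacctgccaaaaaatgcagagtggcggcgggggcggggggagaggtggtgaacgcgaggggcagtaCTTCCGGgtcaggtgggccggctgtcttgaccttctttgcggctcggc
ATP5F1C: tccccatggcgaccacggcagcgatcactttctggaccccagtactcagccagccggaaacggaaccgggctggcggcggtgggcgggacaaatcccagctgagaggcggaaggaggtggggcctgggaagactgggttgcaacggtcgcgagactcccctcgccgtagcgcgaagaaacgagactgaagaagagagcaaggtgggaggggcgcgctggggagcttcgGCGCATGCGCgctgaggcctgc

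On either strand of the 300-base window, the ETS letters were found in 3 of the 8 members (ATP5F1A, ATP5PD and ATP5PF), against 10.3% of 35116 promoters. The NRF1 letters were found in 2 (ATP5F1C and ATP5PF), against 4.43%, and AAGATGG, a YY1 motif, in 3 (ATP5PB, ATP5PF and ATP5PO), against 5.84%. GGGCGG, the GC box, was found in 6, against 45.0%, and CCAAT in 4, against 34.6%. The 3 members with the ETS letters included both a gene that fell by 1.24 on the log2 scale in SK/EPI, ATP5F1A, and ATP5PD, which did not pass the test. A match of letters is a description and not a binding site.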

How the data were processed

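RNA of 12 libraries was poly-T selected and sequenced, and groups came from the labels. The authors deposited FPKM in 2 tables, whose unit was read from the values: FPKM multiplied by the merged exon length in GENCODE 29 gave whole reads (within 0.05) for 100% of values. The submitters' processing notes name HISAT2 2.0.5, featureCounts 1.5.0-p3, DESeq2 1.16.1 and hg38; strand settings are not given in the sources used here. Recovered reads on genes were 89.5% to 101% of the total by which the FPKM were scaled, highest in SK-BR-3. Genes with 10 reads or more in 3 or more libraries, scaled to the median library, and with 15 or more in all were fitted with limma 3.58.1 in R 4.3.3 (lmFit, eBayes with trend) on log2(FPKM + 1), by group within each table, with Benjamini-Hochberg adjustment over all genes (threshold 0.05); a fold change on this scale understates that of low genes. Single ratios were compared with exact permutation tests. The steps were tested on simulated data. The transcript of a gene was its principal (APPRIS) one, then the longest. Named were the members, ABCG2, the marker and ATP synthase lists, overlapping or copied genes, and the 5 genes most correlated with the members' mean, of which 1 is not reported here. The members and lists were chosen with earlier results of these data known. Alternatives were a pseudocount of 0.1, other filters, scalings, voom on recovered reads, the replicate block and leaving out each library. Intervals cover the spread between libraries.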

Additional observations from a re-analysis of the deposited data

How the results depend on the processing

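Over all alternatives the members called numbered 6 to 9 in SK/EPI versus SK-BR-3 (8 in the reported fit) and 8 to 10 in SK/EPI-siBCRP versus SK/EPI-siNC (10 in the reported fit). Leaving out a library moved the members' median log2 fold change to between -0.49 and -0.42 and to between 0.49 and 0.52, respectively. Of 280 member values under an alternative, 25 lost a call, 1 gained it and no called value changed sign. The losses were of ATP5PO and ATP5MC1 in SK/EPI and of ATP5F1E and ATP5PD after silencing. Apart from left-out libraries, ATP5PO and ATP5MC1 lost it with no filter (adjusted p = 0.062 and 0.094), with scaling outside the mitochondrial chromosome (0.070 and 0.10) and with voom on recovered reads (0.062 and 0.13). ATP5F1E and ATP5PD lost it with no filter (0.090 and 0.13), and ATP5PD with FPKM scaled to equal sums (0.053). The cause was not tested. Voom moved the median of all genes in SK/EPI versus SK-BR-3 by 0.093, to 0.10. The other ATP synthase genes called numbered 13 to 15 in SK/EPI and 12 to 16 after silencing.

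With the replicate number as a block, 7 members were called in SK/EPI (ATP5MC1 lost its call, adjusted p = 0.059) and 10 after silencing. Same-numbered libraries did not deviate together, with correlations of -0.053 to -0.0022 in the first table and 0.0082 to 0.059 in the second, so the numbers were read as names only; 2 of the 3 numbers in the second table and none in the first correlated best with their own. Per length of 1 transcript a gene, a choice made after the merged lengths were seen, the median level of the members was 80.5 in SK-BR-3, 47.7 in SK/EPI, 46.2 in SK/EPI-siNC and 68.4 in SK/EPI-siBCRP, against 34.9, 24.2, 24.8 and 35.2 FPKM as deposited. The 95% intervals of ATP5F1E and ATP5PD in SK/EPI versus SK-BR-3 include 0.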

Other observations

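The carriers that supply ATP synthase with its substrates all passed the test in both comparisons and in all 14 alternatives, but in different directions in SK/EPI. Of all genes tested, 37.9% were called higher and 37.0% lower in SK/EPI. After silencing, 19.4% were called higher and 18.7% lower. SLC25A3, the phosphate carrier, fell in SK/EPI (log2 fold change -0.51, SE 0.03, adjusted p = 1.87e-06), as did SLC25A5, an ADP/ATP carrier (-0.32, SE 0.04, adjusted p = 2.74e-04). The ADP/ATP carriers SLC25A4 and SLC25A6 rose there (0.52, SE 0.07, adjusted p = 3.06e-04, and 0.66, SE 0.05, adjusted p = 9.80e-06). After silencing all 4 rose: SLC25A3 by 0.32, SLC25A4 by 0.70, SLC25A5 by 0.19 and SLC25A6 by 0.30 on the log2 scale (adjusted p from 3.18e-05 to 0.0012).

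HAUS1, a subunit of the augmin complex of the spindle, starts 2 bases from the outermost GENCODE 29 start of ATP5F1A on the opposite strand. The promoter window shown for ATP5F1A, chr18:46098297-46098546, lies further inside that gene. HAUS1 had 5.47 to 6.40 FPKM in SK-BR-3 and 2.29 to 3.40 in SK/EPI (log2 fold change -0.86, SE 0.11, adjusted p = 1.55e-04), and 2.64 to 3.60 in SK/EPI-siNC and 2.44 to 3.18 in SK/EPI-siBCRP (log2 fold change -0.12, adjusted p = 0.42). The annotated exons of both genes share 3 bases.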
